A study of Mus musculus with 8 samples.

Results

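The genes described here encode mechanically gated or mechanically responsive cation channels (Piezo1, Piezo2, Trpv4, Pkd1 and Pkd2) and the subunits of gap junctions and of pannexin channels (Gja1, Gjc1, Panx1 and Panx3). They were taken by symbol, and all 9 matched exactly 1 of the 49315 gene IDs in the deposited count table. The tissue was calvaria (skull vault bone) of female C57BL6 mice aged 2 to 3 days. Wild-type mice (WT, 4 libraries) were compared with Girk3 knockout mice (KO, 4 libraries), in which the potassium channel subunit gene Kcnj9 is deleted throughout the body. The labels give no sex, age, strain or treatment difference between the groups and no origin of the wild-type mice, such as littermates. Replicates are numbered, but nothing in the labels says that equal numbers mark shared litters, so p-values measure the spread between these 8 samples.

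Bone cells sense fluid flow and strain through channels that let calcium in. Piezo channels open when the membrane is stretched, Trpv4 responds to cell swelling and matrix strain, and the polycystins encoded by Pkd1 and Pkd2 form a complex at the primary cilium. The signal spreads between cells in 2 ways. Connexins join neighbouring osteoblasts and osteocytes through gap junctions, and connexin hemichannels and pannexins release ATP, which acts on purinergic receptors.

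Library totals ran from 35392465 to 54290034 counts. Levels are given in CPM, counts scaled to a common library total, and 1 count was worth at most 0.0272 CPM. The Kcnj9 transcript held 0 to 4 counts in wild type and 2 to 9 in knockout, too few to check the genotype labels. Summed osteoblast markers, 6 of 6 passing the count filter, ran from 81590 to 99400 CPM in WT libraries and from 72030 to 102700 CPM in KO libraries. A sum does not show each gene. Of these 6, 2 had a log2 change above 0 and 4 below. At an adjusted p under 0.05 edgeR called 1 lower in knockout, beside 0.874% of all tested genes. Named after their values were seen, Bglap changed by -0.48 (log2, unadjusted 95% interval -0.70 to -0.26) and Ibsp by -0.25 (-0.47 to -0.02). Osteocyte markers, 6 of 6, ran from 1089 to 1246 and from 965 to 1339 CPM. Skeletal muscle markers, 10 of 10, ranged from 11.5 to 2557 CPM. They were lowest in wild-type replicate 3 and knockout replicates 2 and 3. Of 6 epidermis markers 3 passed the filter, and the keratin genes Krt5 and Krt14 held at most 10 and 5 counts in any library. Summed markers of 2 cell types were lower in knockout without overlap, where 10.6% of all single tested genes did not overlap in either direction. They were macrophage markers (5 of 5; 461 to 618 CPM in WT libraries, 345 to 426 in KO libraries) and Schwann cell markers (5 of 5; 33.9 to 42.5 and 27.1 to 29.5 CPM). Of the macrophage genes 5 had a log2 change below 0 and edgeR called 1 lower. Of the Schwann cell genes 4 lay below 0 and 1 above, and edgeR called 2 lower, beside the same 0.874%. Osteoclast markers (5 of 5) ran from 5611 to 8318 CPM in WT libraries and from 3909 to 5952 in KO libraries, with overlap. All 5 osteoclast genes had a log2 change below 0 (median -0.53). Each had an unadjusted p under 0.05 in edgeR, beside 17.4% of all tested genes, and none was called. Erythroid markers (5 of 5) ran from 379 to 708 and 218 to 492 CPM. In whole tissue, fewer cells of a type and less RNA per cell cannot be told apart.

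No gene of the 9 differed between the genotypes at an adjusted p under 0.05 in edgeR's quasi-likelihood test, where 1.32% of 17743 tested genes did (0.445% higher and 0.874% lower in knockout). All 9 passed the count filter. At an unadjusted p under 0.05 there were 2, Piezo2 and Panx1, against 17.4% of all tested genes, and in Panx1 the groups did not overlap, against 10.6% of all tested genes (5.96% lower in knockout, as Panx1 was, and 4.63% higher). Of the 9, 6 had a log2 change above 0 and 3 below, with a median of 0.09, beside a median of 0.00 over all tested genes (-0.000295 before rounding). DESeq2 and limma-voom also called none of the 9.

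**Figure D1:**
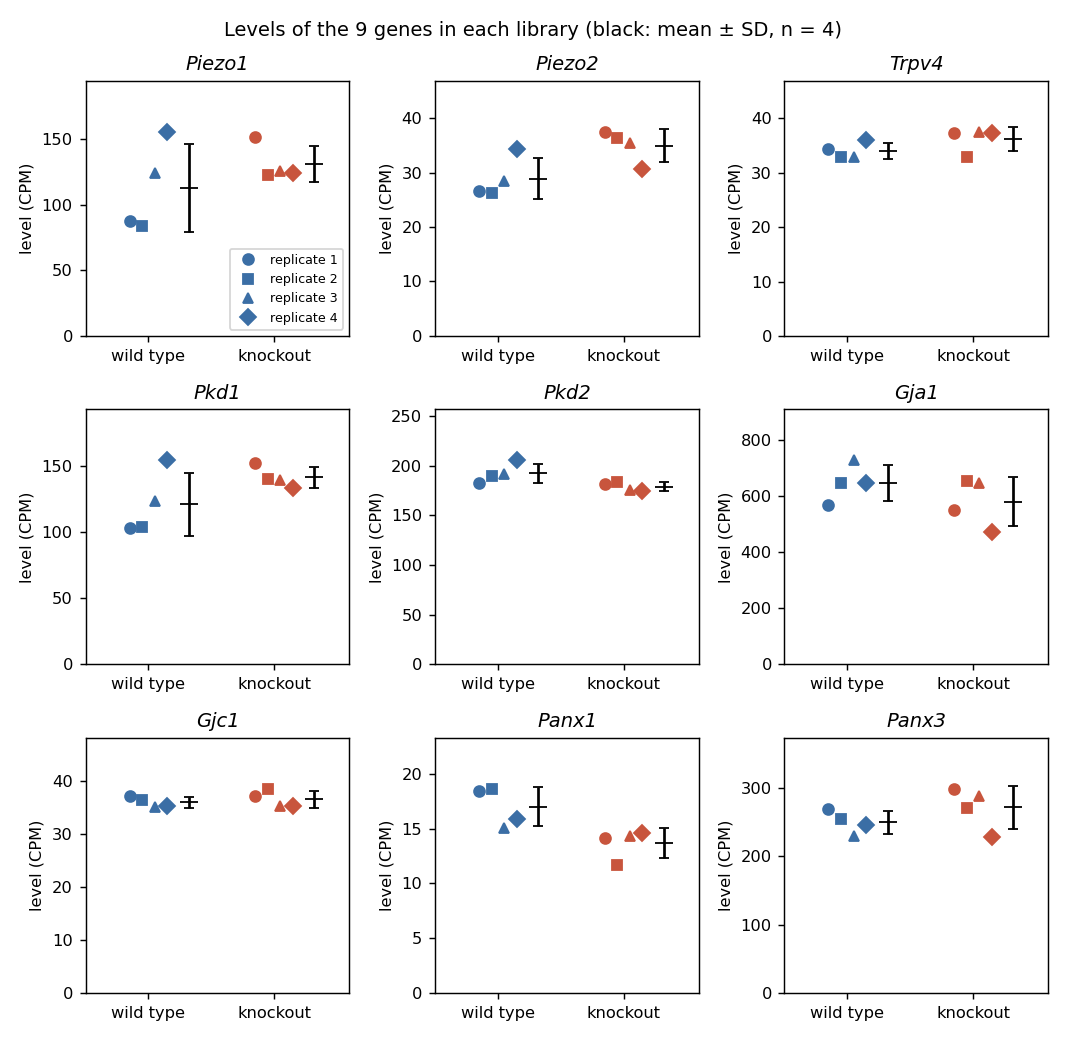
Level of each of the 9 genes in CPM (vertical axes, from 0) in the 4 wild-type and 4 knockout libraries (points, shaped by replicate), with mean and SD in black. In Panx1 the knockout libraries, at most 14.6 CPM, all sit below the wild-type libraries, at least 15.1 CPM; in the other genes the groups overlap.

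Promoters of 3 genes are shown for the genes on which the description turns. Gja1 is the connexin gene of highest level, Panx1 is the only one of the 9 whose groups do not overlap, and Piezo1 varied most between wild-type libraries. RefSeq promoter windows on GRCm38.p6 were matched for 6 of the 9 genes; Panx3, Gjc1 and Piezo2 had none. The 250 bases before the annotated start are printed 5′ to 3′ on the gene's strand. Capitals mark every match, on either strand, to AP-1 (TGANTCA), RUNX (TGTGGT), the GC box (GGGCGG), the TATA box (TATAAA) or CRE (TGACGTCA). The windows lie at chr10:56377050-56377299 (Gja1, plus strand), chr9:15045479-15045728 (Panx1, minus strand) and chr8:122551330-122551579 (Piezo1, minus strand).
Gja1: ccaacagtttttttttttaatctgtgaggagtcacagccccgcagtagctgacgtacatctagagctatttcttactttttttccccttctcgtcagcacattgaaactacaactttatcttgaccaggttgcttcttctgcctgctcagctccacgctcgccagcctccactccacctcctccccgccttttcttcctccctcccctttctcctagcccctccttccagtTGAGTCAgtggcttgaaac
Panx1: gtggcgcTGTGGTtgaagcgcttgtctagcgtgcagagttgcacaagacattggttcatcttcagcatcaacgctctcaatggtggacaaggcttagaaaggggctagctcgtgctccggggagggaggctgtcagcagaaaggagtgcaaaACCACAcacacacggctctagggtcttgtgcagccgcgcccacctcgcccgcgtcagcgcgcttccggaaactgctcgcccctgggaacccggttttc
Piezo1: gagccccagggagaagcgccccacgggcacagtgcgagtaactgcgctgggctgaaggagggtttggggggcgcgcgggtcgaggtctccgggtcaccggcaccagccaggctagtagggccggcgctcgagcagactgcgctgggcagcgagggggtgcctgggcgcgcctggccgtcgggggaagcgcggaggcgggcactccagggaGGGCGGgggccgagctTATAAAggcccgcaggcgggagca
The Gja1 window held 1 AP-1 match, which lay near its 3′ end, where 6.75% of 32841 promoter windows held at least 1 at any position. The Panx1 window held 2 RUNX matches, 1 on each strand, where 14.05% of windows held at least 1. Piezo1 held 1 GC box match and 1 TATA box match, found in 32.75% and 12.4% of windows, and its window was 74.0% G or C. None of the 3 held the CRE letters, which 1.55% of windows did.

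Levels were compared between genes as CPM per kilobase of merged exon length (RPKM). Panx3, a pannexin known from osteoblasts and hypertrophic chondrocytes, stood highest at 75.99 ± 7.54 RPKM (SD over 8 libraries), above 97.5% of tested genes. Gja1, the main connexin of the osteoblast lineage, followed at 59.7 ± 7.75 RPKM. Their ranges overlapped, and Panx3 was the higher in 7 of 8 libraries. This order depends on the length used: per base of the longest transcript Gja1 stood at 157.5 and Panx3 at 103 RPKM, since the merged exons of Gja1 span 10257 bases and its longest transcript 3889. Pkd2 was next at 18.3 ± 0.977 RPKM, outside the ranges of both neighbours in the order. Piezo1 followed at 12.3 ± 2.58 RPKM. Trpv4 (8.62 ± 0.519 RPKM) overlapped Piezo1 above it and Pkd1 (7.53 ± 1.13 RPKM) below it. Gjc1 (7.23 ± 0.254 RPKM) overlapped Pkd1 but lay below every Trpv4 library. The lowest were Panx1 at 2.54 ± 0.379 and Piezo2 at 1.86 ± 0.263 RPKM, with overlapping ranges, and Piezo2 still lay above 39.2% of tested genes. Their order too depends on the length used. Per base of the longest transcript Panx1 (2.675 RPKM) lay below Piezo2 (2.977), and Gjc1 (10.59) lay above Pkd1 (9.259).

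**Figure D2:**
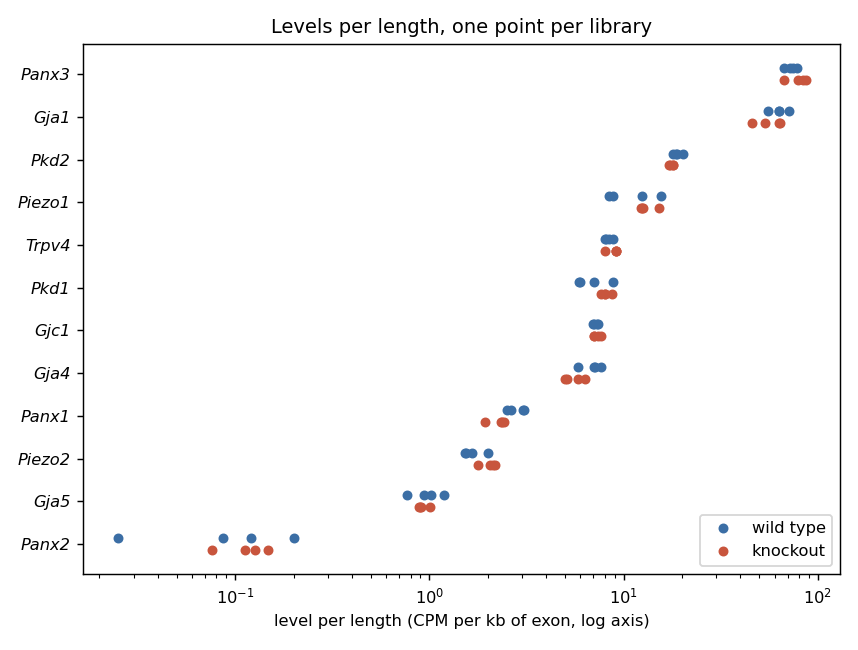
Level per length (horizontal log axis, CPM per kb of exon) of the 9 genes and of Gja4, Gja5 and Panx2 in each wild-type and knockout library (points). Panx3 and Gja1 lie between 45.8 and 87.0, and every library of the other genes lies at or below 20.2.

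Among the channels, Piezo1 (chromosome 8, 122481698 to 122551329, minus strand) varied most. Wild-type libraries 1 to 4 stood at 87.9, 84.0, 124 and 155 CPM, and knockout libraries 1 to 4 at 152, 123, 125 and 124 CPM. Wild-type replicates 1 and 2 were low, and the other 6 libraries held both genotypes between 123 and 155 CPM. The log2 change was 0.22 ± 0.192 (SE, edgeR adjusted p = 0.61), with a 95% interval of 0.858- to 1.57-fold. Leaving out wild-type replicate 1 or 2 or knockout replicate 1 gave 0.11, 0.10 and 0.14, and leaving out wild-type replicate 4 or the 3 libraries of low muscle RNA gave 0.41 and 0.34. None of these passed (adjusted p 0.185 to 0.861 in edgeR). The Piezo1 exons share 24.6% of their bases with Ctu2 on the opposite strand, and the strand setting of the counting is not given in the sources used here. The level of Ctu2 was 11.9 ± 0.882 CPM in WT libraries and 10.1 ± 1.31 in KO libraries (SD, n = 4 per genotype).

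Piezo2, the touch and proprioception channel of sensory neurons and Merkel cells (chromosome 18, 63010213 to 63387183, minus strand), stood at 26.6, 26.3, 28.4 and 34.4 CPM in wild type. The knockout libraries held 37.4, 36.3, 35.3 and 30.7 CPM. Knockout was the higher except that replicate 4 lay below wild-type replicate 4. The log2 change was 0.27 ± 0.097 (SE, unadjusted p = 0.015 and adjusted p = 0.179 in edgeR), and no alternative setting called it. Neuron markers, 5 of 5 passing the filter, overlapped between the groups, at 10.9 to 32.6 CPM in WT libraries and 14.9 to 26.0 in KO libraries. Schwann cell markers were lower in knockout, as given above; their part in the Piezo2 value was not tested.

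Trpv4 (chromosome 5, 114622152 to 114658421, minus strand) varied little. It held 34.4, 32.8, 32.9 and 36.0 CPM in WT libraries 1 to 4 and 37.3, 32.9, 37.5 and 37.3 CPM in KO libraries 1 to 4. Knockout replicate 2 lay with the wild-type libraries. The 95% interval of the change was 0.958- to 1.18-fold (edgeR adjusted p = 0.538).

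The polycystin genes had changes of opposite sign, neither past the threshold. Pkd1, which encodes the large receptor-like subunit (chromosome 17, 24549834 to 24596508, plus strand), held 103, 104, 123 and 154 CPM in WT libraries 1 to 4 and 152, 140, 139 and 134 CPM in KO libraries 1 to 4. Wild-type replicate 4 was the highest of all, and the other wild-type libraries lay below every knockout library. The log2 change was 0.22 ± 0.117 (SE, edgeR adjusted p = 0.349), and 0.36 without wild-type replicate 4 (edgeR adjusted p = 0.0864). Pkd2, the channel-forming partner (chromosome 5, 104459450 to 104505819, plus strand), held 183, 190, 192 and 205 CPM in wild type. The knockout libraries held 182, 184, 176 and 174 CPM, and only knockout replicate 2 reached the wild-type range. Its log2 change was -0.11 ± 0.064 (SE, edgeR adjusted p = 0.421). Tsc2, on the opposite strand, shares 3.98% of the Pkd1 exon bases with a level of 57.4 ± 4.55 CPM in WT libraries and 61.4 ± 6.29 in KO libraries (SD, n = 4 per genotype).

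**Figure D3:**
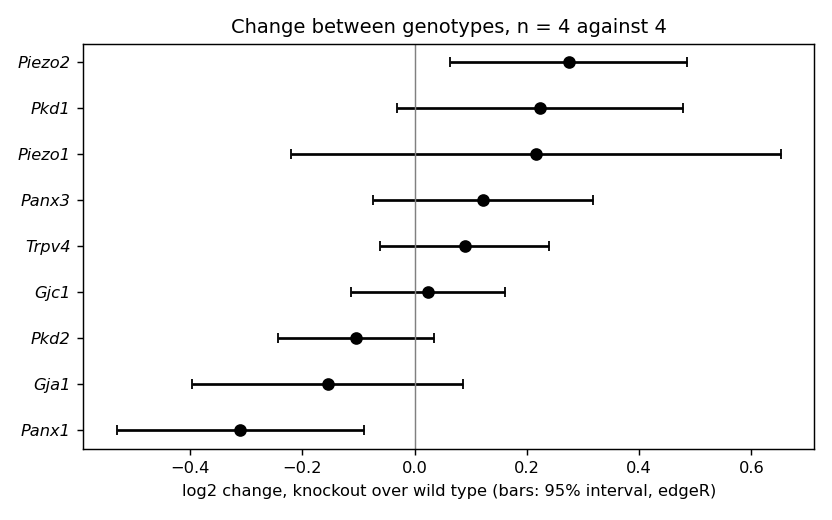
Log2 change of each gene, knockout over wild type (horizontal axis), with its unadjusted 95% interval from the edgeR fit (bars, 4 libraries against 4). The intervals of Piezo2 and Panx1 lie off 0, and the widest, that of Piezo1, runs from -0.22 to 0.65.

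Gja1 (chromosome 10, 56377330 to 56402513, plus strand) held 566, 646, 726 and 644 CPM in WT libraries 1 to 4 and 549.5, 654, 645 and 470 CPM in KO libraries 1 to 4. The groups overlapped, with knockout replicate 4 the lowest library and wild-type replicate 3 the highest. The log2 change was -0.16 ± 0.111 (SE, edgeR adjusted p = 0.501), or 0.759- to 1.06-fold by its 95% interval. It was -0.06 without knockout replicate 4, -0.09 without wild-type replicate 3 and -0.27 without the 3 libraries of low muscle RNA. Gjc1, a connexin gene also active in bone-forming cells (chromosome 11, 102799579 to 102819700, minus strand), was the steadiest of the 9. It held 37.1, 36.3, 34.96 and 35.1 CPM in WT libraries 1 to 4 and 37.1, 38.4, 35.1 and 35.1 CPM in KO libraries 1 to 4. Its 95% interval of 0.924- to 1.12-fold was the narrowest of the 9 (edgeR adjusted p = 0.886).

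Gja1 made up most of the connexin RNA per length, at 79.1 ± 1.39% of the summed level of 20 connexin genes in WT libraries and 78.2 ± 4.03% in KO libraries (SD, n = 4 per genotype). Gjc1 held 9.09 ± 0.996% and 10.2 ± 0.925%. The endothelial connexin gene Gja4, at 6.24 ± 0.96 RPKM over 8 libraries, held 8.68 ± 0.349% and 7.88 ± 1.74%. Its partner in arterial endothelium, Gja5, stood at 0.954 ± 0.125 RPKM. Knockout replicate 4 had the smallest Gja1 share, 73.3%, and the largest Gja4 share, 10.1%. These shares use merged exon length and depend on it. Per base of the longest transcript Gja1 stood at 157.5 in place of 59.7 RPKM, and Gjc1 at 10.59 in place of 7.23.

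The pannexin genes had changes of opposite sign, and neither passed. Panx1, the widely expressed ATP release channel (chromosome 9, 15002128 to 15045478, minus strand), held 18.4, 18.6, 15.1 and 15.8 CPM in wild type. Its knockout libraries held 14.1, 11.7, 14.4 and 14.6 CPM. The gap between the groups, from 14.6 to 15.1 CPM, was narrower than the spread within either group. The log2 change was -0.31 ± 0.101 (SE, unadjusted p = 0.00947 and adjusted p = 0.152 in edgeR), or 0.692- to 0.939-fold by its unadjusted 95% interval. Adjusted p over the alternatives ran from 0.0817 with DESeq2 to 0.564 without the 3 libraries of low muscle RNA. Macrophage markers were lower in the knockout libraries, as given above, and their part in the Panx1 value was not tested. Panx3 (chromosome 9, 37659902 to 37669235, minus strand) held 269.9, 255, 229 and 246 CPM in WT libraries 1 to 4 and 299, 271, 289 and 229 CPM in KO libraries 1 to 4. Knockout replicate 4 was as low as the lowest wild-type library, and the other 3 lay above all of wild type. The log2 change was 0.12 ± 0.0901 (SE, edgeR adjusted p = 0.518), and without knockout replicate 4 it was 0.20 (edgeR adjusted p = 0.141). It was 0.07 without knockout replicate 1 and 0.05 without the 3 libraries of low muscle RNA (edgeR adjusted p = 0.746 and 0.944). Cartilage markers, which include genes of the hypertrophic chondrocytes that use Panx3, overlapped between the groups (8 of 8 tested; 1471 to 1714 CPM in WT libraries and 1528 to 2073 in KO libraries).

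Ratios within a library do not depend on how libraries are scaled, so 4 ratios of related genes were compared by exact permutation tests. The log2 ratio of Panx3 to Panx1 counts was 3.88 ± 0.0799 in WT libraries and 4.31 ± 0.241 in KO libraries (SD, n = 4 per genotype, exact permutation p = 0.0286, two-sided, and 0.0571 adjusted over the 4 ratios). The groups did not overlap, but knockout replicate 4, at 3.97, lay next to wild-type replicate 4, at 3.96. Per length, Panx3 exceeded Panx1 by 24.1- to 40.7-fold. The ratio of Pkd1 to Pkd2 was -0.69 ± 0.209 in WT libraries and -0.34 ± 0.0605 in KO libraries (SD, n = 4 per genotype, exact permutation p = 0.0286, adjusted 0.0571). The closest libraries were wild-type replicate 4 at -0.41 and knockout replicate 2 at -0.39. The longest transcripts of Pkd1 and Pkd2 differ in length (14164 and 5219 bases) and in G and C (56.8% and 49.0%). A part of these differences in the ratio was not tested. With 4 against 4, 0.0286 is the smallest p the design allows. Only these ratios among the 4 reached it. With no further ratio at that floor, adjustment over the 4 could give no less than 0.0571. A threshold of 0.05 was thus out of reach, and the adjusted values cannot decide either ratio. Gja1 to Gjc1 (difference -0.19, exact permutation p = 0.229, adjusted 0.305) and Piezo1 to Piezo2 (-0.02, exact permutation p = 0.8286, adjusted 0.8286) overlapped between the groups.

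**Figure D4:**
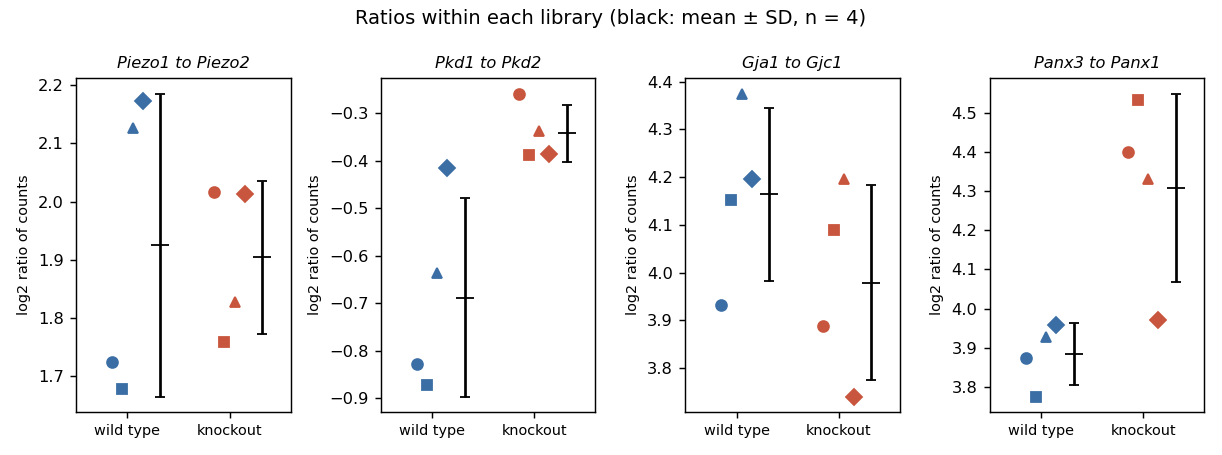
Log2 ratio of counts (vertical axes) of 4 gene pairs in each library (points, shaped by replicate as in the plot of levels), with mean and SD in black. For Pkd1 to Pkd2 and Panx3 to Panx1 every knockout library lies above every wild-type library, by 0.03 and 0.01 at the closest.

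Profiles across the 8 libraries were compared as a description. Of 36 pairs among the 9, Piezo2 and Pkd1 had the smallest mean absolute difference between centred log2 CPM profiles (0.0732), and Piezo1 and Panx1 the largest (0.379). Piezo1 and Pkd1 differed by 0.0981, and both were low in wild-type replicates 1 and 2 and high in wild-type replicate 4 and knockout replicate 1. The genes nearest to Piezo1 among 13077 candidates were Soga1 (0.0442), Slit3 (0.0507) and Vash1 (0.07), and those nearest to Pkd1 were Sipa1l3, Erc1 and Ptprf (0.0288 to 0.0468). For Gja1 they were Ptbp3, Pphln1 and Atp2c1 (0.0296 to 0.046), for Panx1 Dusp28, Tspan2 and Sdhb (0.0406 to 0.0482), and for Panx3 C87436, Dnajc25 and Itga10 (0.0387 to 0.0435). Those of Piezo2 were Meis1, Ddi2 and Fat3, those of Trpv4 Uckl1, Tmem120b and Gtf2ird1, those of Pkd2 Ipo5, Cnnm2 and Ptpn9, and those of Gjc1 Ankrd10, Fbxo21 and Cd81.

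The longest transcripts of Piezo1 and Pkd1 are long and rich in G and C (8219 and 14164 bases, 59.0% and 56.8%). The median of 77 other genes with transcripts of at least 8000 bases and 55% G and C, a class chosen after the profiles were seen, was also low in wild-type replicates 1 and 2 (-0.12 and -0.19). It was high in wild-type replicate 4 and knockout replicate 1 (0.16 and 0.20). In wild-type replicate 3 the median was -0.11, where Piezo1 was at 0.05 and Pkd1 at -0.08. In knockout replicate 3 it was -0.07, where Piezo1 was at 0.07 and Pkd1 at 0.10. The genes named above as nearest to Piezo1 and Pkd1 each missed the length or the G and C limit of this class. The longest transcripts of Soga1, Slit3 and Vash1 had 7864, 5228 and 2599 bases (60.27%, 56.79% and 62.22% G and C). Those of Sipa1l3, Erc1 and Ptprf had 7713, 8760 and 7656 bases (58.89%, 50.4% and 58.1%). Piezo2, which formed the closest pair with Pkd1, had 10724 bases and 49.96% G and C. The part of transcript length and G and C in the Piezo1 and Pkd1 values was not tested.

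**Figure D5:**
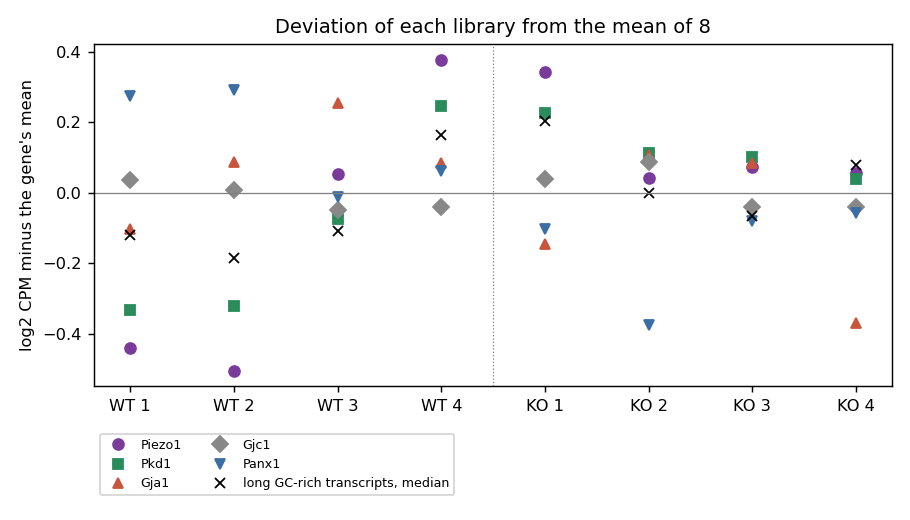
Log2 CPM of 5 genes in each library minus the gene's mean over the 8 libraries (vertical axis), with the median of 77 other long, GC-rich transcripts as crosses. Piezo1 runs from -0.51 in WT 2 to 0.38 in WT 4, and the crosses run from -0.19 in WT 2 to 0.20 in KO 1.

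Related genes were described by list. Of 19 other connexin and pannexin genes 9 passed the count filter, and edgeR called none (median log2 change 0.02; 2 of 9 at an unadjusted p under 0.05, beside 17.4% of all tested genes). Those 2 were Gja4 (-0.31 ± 0.112) and Gjc3, a connexin gene of myelinating glia (-0.82 ± 0.271, SE; adjusted p = 0.185 and 0.16 in edgeR), named after their values were seen. Schwann cell markers were lower in the knockout libraries, and endothelium markers (5 of 5 tested) overlapped, at 453 to 535 CPM in WT libraries and 408 to 534 in KO libraries; their part in these values was not tested. The neuronal pannexin gene Panx2 stood at 0.388 ± 0.263 CPM in WT libraries and 0.416 ± 0.109 in KO libraries (SD, n = 4 per genotype). Of the genes below the filter, Gja10 and Gje1 held at most 1 count in any library.

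Of 30 other stretch-responsive channel and accessory genes 23 passed the filter and none was called in edgeR (12 above 0 and 11 below, median 0.01; 2 of 23 at an unadjusted p under 0.05). The 2 of highest level per length were Tmem120a (18.6 ± 1.97 RPKM over 8 libraries) and Mdfi, whose product is related to a Piezo-binding protein (18.3 ± 2.4 RPKM). Of 23 primary cilium genes 22 were tested and none called in edgeR (13 above 0 and 9 below, median 0.04; 3 of 22 at an unadjusted p under 0.05). The transport gene Ift20 (77.5 ± 7.49 RPKM) and the adenylyl cyclase gene Adcy6 (14.7 ± 1.63 RPKM) were highest. Of 15 gap junction scaffold and adherens junction genes none was called in edgeR (4 above 0 and 11 below, median -0.05; 3 of 15 at an unadjusted p under 0.05), with Ctnnb1 (217.9 ± 6.64 RPKM) and Nedd4 (111.1 ± 8.56 RPKM) highest. These counts stand beside the same 17.4%. DESeq2 and limma-voom called none in these 4 lists either.

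Of 23 genes of extracellular ATP and adenosine signalling 21 were tested and edgeR called none, with 6 above 0 and 15 below (median -0.11; 4 of 21 at an unadjusted p under 0.05, beside 17.4% of all tested genes). In 2 of the 21, P2ry6 and Slc17a9, named after their values were seen, the groups did not overlap, beside 10.6% of all tested genes. P2ry6, a UDP receptor gene of macrophages, held 7.31, 8.87, 9.52 and 9.03 CPM in WT libraries 1 to 4 and 6.84, 5.09, 3.84 and 5.49 CPM in KO libraries 1 to 4. Its log2 change was -0.71 ± 0.162 (SE, edgeR adjusted p = 0.0537). It passed in 5 of 18 alternatives, DESeq2 and limma-voom among them. Macrophage markers were lower in the same libraries, and their part in the P2ry6 value was not tested. Slc17a9, the vesicular ATP transporter gene, held 29.3, 28.1, 27.5 and 28.8 CPM in WT libraries 1 to 4 and 35.8, 32.8, 34.8 and 30.9 CPM in KO libraries 1 to 4. Every knockout library lay above wild type (log2 change 0.24 ± 0.0686, SE, edgeR adjusted p = 0.111). It passed with DESeq2 (adjusted p = 0.0227) and, in edgeR, without knockout replicate 4 (adjusted p = 0.0358). Entpd3, which encodes an ATP-hydrolysing ectoenzyme, had the highest level per length of the list (24.6 ± 2.44 RPKM), followed by Slc17a9 (9.68 ± 0.984 RPKM).

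Of 18 genes known to respond to mechanical load in bone 7 fell in knockout and none rose in edgeR, beside 0.874% of all tested genes called lower (median log2 change -0.39). The list was set with earlier results of these samples known, so its direction is not independent evidence. The smallest p values were those of Ccn2 (-0.78 ± 0.0788), Ccn1 (-0.82 ± 0.0906), Fos (-1.43 ± 0.155) and Ier3 (-1.06 ± 0.134, SE; edgeR adjusted p 0.00087 to 0.00359). An antisense transcript shares 23.2% of the Ccn2 exon bases. In the same list Spp1, which encodes osteopontin, and Timp1, a metalloproteinase inhibitor gene, stood highest per length (7112 ± 1269 and 309.7 ± 28.4 RPKM over 8 libraries) and did not pass. Without the 3 libraries of low muscle RNA, 3 wild-type against 2 knockout libraries, edgeR called none of the 18 (adjusted p of the 4 named genes 0.0722 to 0.0981). That fit called 8 of 18435 tested genes. The log2 changes of the named genes there were -0.73 for Ccn2, -0.83 for Ccn1, -1.54 for Fos and -0.78 for Ier3. With muscle markers as a covariate on all 8 libraries 7 of the 18 were called, all lower in knockout, beside 325 of 17743 tested genes (225 lower). Sost, which encodes the osteocyte Wnt inhibitor sclerostin and was named after its values were seen, had a log2 change of 0.57 ± 0.173 (SE, edgeR adjusted p = 0.148). It was called higher in knockout with DESeq2 (adjusted p = 0.0161) and, in edgeR, without wild-type replicate 2 (0.78, adjusted p = 0.0114).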

How the data were processed

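RNA sequencing libraries (NEBNext Ultra II RNA kit, per the labels' protocols) were analysed from calvaria of 4 wild-type and 4 Girk3 knockout mice. The authors deposited raw counts per Ensembl gene ID with no normalization. The submitters' processing notes list bcl2fastq 2.17, STAR 2.5.2b, featureCounts, Subread 1.5.2 and the build mm10. Annotation release and strand setting were not given in the sources used here. Symbols, coordinates and merged exon lengths were taken from GENCODE M21 (GRCm38/mm10).

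Genes were kept with edgeR's filterByExpr (minimum count 10, total 15), which left 17743 genes, and scaled with TMM factors (0.972 to 1.04). CPM used TMM-scaled library totals for all genes, and log2 CPM a prior count of 2. Knockout was compared with wild type by edgeR 4.0.16 (robust quasi-likelihood test in R 4.3.3). Its two-sided p-values were adjusted by Benjamini-Hochberg over all tested genes, with a threshold of 0.05. The 95% intervals are the fitted change ± SE times the t quantile of the fit. Ratios of 4 gene pairs, with 0.5 added to each count, used exact permutation tests. Named genes were all 9, Kcnj9, in each list up to 4 called genes and the 2 of highest level per length, and the 3 genes with at least 1 CPM nearest to each of the 9 in profile. The members, lists and rules were chosen with earlier results of these data known. Alternatives used DESeq2 1.42.0, limma 3.58.1, other scalings and filters, a muscle covariate, a replicate block and left-out libraries. The fit was also run on simulated counts that held no differences in tissue content between libraries. That run checked the code, not how well the fit suits these samples. Plots were made in matplotlib 3.10.9. All samples entered the fits, and no 2 replicates agreed within counting noise (chi-square per degree of freedom at least 10.3). Counts are reads, not molecules, so precision from depth covers counting error only.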

Additional observations from a re-analysis of the deposited data

Results flagged for a closer look

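In 4 of 60 gene, ratio or marker groups of 4 libraries, 1 library stood apart from the rest. Chance flags about 1 in 20 groups, or 3 of 60. The ratios reuse counts of genes also checked singly, so the 60 groups are not independent. Piezo1 was at 151.5 CPM in knockout replicate 1, against 123 to 125 in the other knockout libraries. Trpv4 was at 32.9 CPM in knockout replicate 2, against 37.3 to 37.5. Panx1 was at 11.7 CPM in the same library, against 14.1 to 14.6. In wild-type replicate 1 the neuron markers summed to 32.6 CPM, while the other 3 of that genotype had 10.9 to 14.3.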

How the results depend on the processing

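None of the 9 genes was called under any of 18 alternatives, and each kept the sign of its change in all of them. The number of called genes over the whole table was 355 with no filter, 952 with DESeq2, 126 with the replicate number as a block, 8 without the 3 libraries of low muscle RNA (chosen after seeing the data) and 57 to 608 when single libraries were left out, against 234. Scaled by library totals alone, 113 genes were called higher and 99 lower, against 79 and 155. Among single left-out libraries, it moved by over 1.5 times without knockout replicates 2, 3 or 4 (57, 82 and 608) and wild-type replicates 2, 3 or 4 (79, 75 and 105). The ATP and adenosine list held 1 call with no filter and 1 with limma-voom (P2ry6), 2 with DESeq2 and 0 to 1 with a library left out. The stretch-responsive and junction lists held 0 to 1 with a library left out: without knockout replicate 4, Mdfi and Dbn1 passed, lower in knockout. The load list held 0 without the 3 libraries of low muscle RNA, 5 to 8 with single libraries left out, 7 with the muscle covariate and 9 with DESeq2 (1 higher, 8 lower). With the muscle covariate 325 genes of the whole table were called. The Piezo1 to Piezo2 difference reversed to 0.157 without the 3 libraries and ran from -0.104 to 0.0614 with single libraries left out, above 0 without wild-type replicate 3 or 4 or knockout replicate 2 or 3; it did not pass in any. The Panx3 to Panx1 and Pkd1 to Pkd2 differences stayed positive, at 0.32 to 0.54 and 0.28 to 0.44. Between libraries of equal replicate number, deviations correlated at 0.255, -0.179, 0.34 and -0.00498 for numbers 1 to 4. Of the 8 libraries, 1 correlated best with its own number in the other genotype. Skeletal muscle RNA also differed widely between libraries, so these correlations cannot tell whether equal numbers mark shared litters. With the replicate number as a block the Panx3 to Panx1 difference was 0.43 (exact sign-flip p = 0.125, the smallest it allows), and none of the 9 genes was called.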
